A study of Mus musculus with 2 samples.

Results

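Transcripts of 10 genes that mark Kupffer cells and other macrophages were examined in the livers of newborn mice. The genes were C1qa, C1qb, C1qc, Clec4f, Cd5l, Vsig4, Marco, Cd68, Tyrobp and Adgre1, chosen by symbol from the 43346 genes in the tables, and all 10 symbols matched a gene. The mice were B6NCrl pups at postnatal day 0, untreated as far as the labels say and of unrecorded sex. The series holds 1 group with 2 libraries, from pup 1 (replicate 1) and pup 3 (replicate 2). Each library was made from 13 pg of liver RNA above 200 nt, an amount equal to that of 1 cell, although the material was whole tissue. The labels call each sample a single liver but list the same donor for both. The spread between the libraries may therefore hold animal and technical parts that cannot be told apart. Endogenous expected counts (estimated reads per gene, spike-ins excluded) totalled 54817565 in pup 1 and 34792898 in pup 3.

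Kupffer cells are the resident macrophages of the liver sinusoids. They take up particles, microbes and dying red cells from the blood, and most are seeded before birth by embryonic precursors that mature in the fetal liver. C1q, the recognition unit of the classical complement pathway, is assembled from A, B and C chains encoded by C1qa, C1qb and C1qc. Macrophages are its main source, whereas the proteases it activates are made largely by hepatocytes. Vsig4, Marco and Clec4f are surface receptors that bind complement-coated particles, polyanionic ligands and glycans, and Clec4f is largely restricted to Kupffer cells in the mouse.

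RefSeq promoter sequences (GRCm38.p6, 250 bases before to 50 after the annotated start) were listed for 7 of the genes, namely C1qb, C1qc, Clec4f, Cd5l, Vsig4, Marco and Cd68. Those of C1qb and Clec4f, counted in both libraries, and of C1qc and Vsig4, counted in pup 3 alone, are shown so that the regulatory sequence can be read beside the levels that follow. Capitals mark GAGGAA or GGAAGT on either strand, short forms of the motif bound by PU.1, the transcription factor that macrophages need to develop. The motifs share the letters GGAA and can overlap, as they do in C1qc.
C1qb (chr4:136886151-136886450, minus strand): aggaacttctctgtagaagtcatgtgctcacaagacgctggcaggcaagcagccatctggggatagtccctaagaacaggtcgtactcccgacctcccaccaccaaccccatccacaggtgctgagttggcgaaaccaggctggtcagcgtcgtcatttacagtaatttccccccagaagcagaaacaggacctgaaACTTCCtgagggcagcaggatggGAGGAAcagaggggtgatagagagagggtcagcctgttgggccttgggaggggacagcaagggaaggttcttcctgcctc
C1qc (chr4:136892865-136893164, minus strand): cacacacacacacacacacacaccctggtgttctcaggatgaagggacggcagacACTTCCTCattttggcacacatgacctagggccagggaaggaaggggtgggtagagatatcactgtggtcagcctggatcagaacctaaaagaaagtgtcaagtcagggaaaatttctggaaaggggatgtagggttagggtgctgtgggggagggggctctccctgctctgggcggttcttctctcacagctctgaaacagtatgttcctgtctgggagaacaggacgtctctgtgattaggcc
Clec4f (chr6:83656067-83656366, minus strand): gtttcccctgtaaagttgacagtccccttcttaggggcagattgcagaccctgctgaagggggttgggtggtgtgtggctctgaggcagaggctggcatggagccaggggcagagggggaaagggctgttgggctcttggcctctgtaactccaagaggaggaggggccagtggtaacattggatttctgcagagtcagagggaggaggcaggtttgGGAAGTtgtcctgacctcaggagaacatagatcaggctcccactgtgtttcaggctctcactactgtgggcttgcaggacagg
Vsig4 (chrX:96293389-96293688, minus strand): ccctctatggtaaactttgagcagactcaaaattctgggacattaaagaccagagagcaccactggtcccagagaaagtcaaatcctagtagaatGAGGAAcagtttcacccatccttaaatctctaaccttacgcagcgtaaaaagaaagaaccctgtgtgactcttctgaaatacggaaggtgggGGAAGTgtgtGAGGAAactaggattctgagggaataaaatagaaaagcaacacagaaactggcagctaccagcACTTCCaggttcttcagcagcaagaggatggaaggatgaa

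GAGGAA was found in 6 of the 7 promoters (all but Clec4f) and in 28.3% of the 32851 promoters in the RefSeq table. GGAAGT was found in 5 of the 7 (C1qb, C1qc, Cd68, Clec4f and Vsig4) and in 23.8% of all promoters. At least 1 of these motifs was present in all 7, against 43.4% of all promoters. TGCTGA, a half-site of the MAF factors, which include the macrophage regulator Maf, was present in 4 of the 7 (C1qb, Cd5l, Clec4f and Vsig4) and in 19.5% of all promoters. Both the genes counted in 2 libraries and those counted in pup 3 alone held PU.1 motifs, and a match describes letters in this window only.

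All 10 macrophage genes were found in pup 3, and 6 of them were also found in pup 1. The genes found in both were C1qa, C1qb, Clec4f, Tyrobp, Cd5l and Marco. C1qc, Cd68, Vsig4 and Adgre1 had no counts in pup 1. Detection here means a level of 1 TPM or more, TPM being a transcript's share of all transcripts, corrected for length and scaled to a total of 1000000 after spike-ins were removed. The 6 of 10 detected in both compares with 46.3% of the 7678 genes detected in either library, a share over genes of all levels. The 4 of 10 found in pup 3 alone compare with 25.2% of those genes, and 0 of the 10 were found in pup 1 alone, against 28.5%. Together the genes held 0.0771% of TPM in pup 1 and 0.140% in pup 3, or 0.109 ± 0.0445% (SD, n = 2). In tissue RNA, fewer macrophages, less of these RNAs per macrophage and technical spread between the libraries cannot be told apart.

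**Figure D1:**
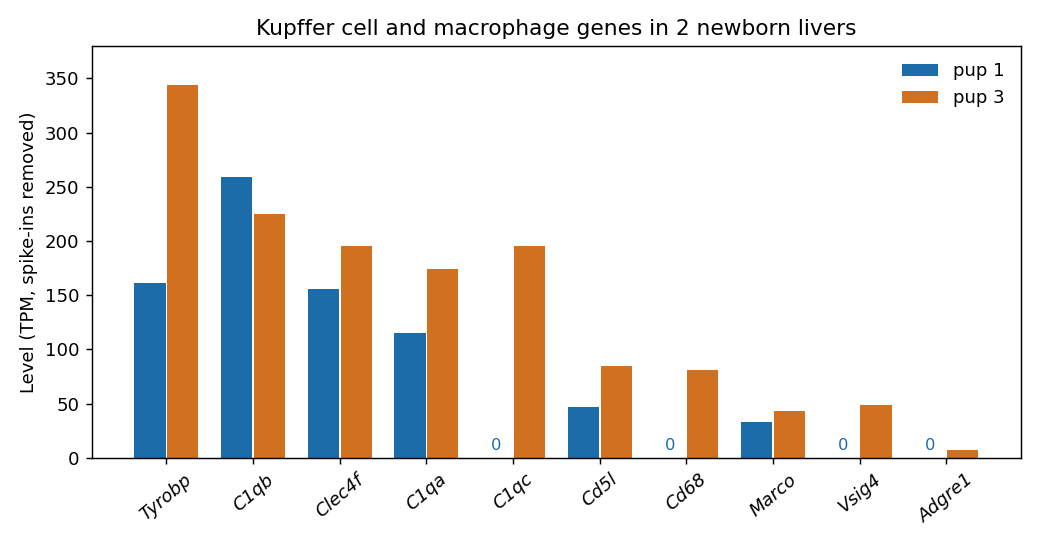
Level of each gene (vertical axis, TPM with spike-ins removed) in pup 1 (left bars) and pup 3 (right bars), in order of the mean over both; each bar is 1 library, so there is no error bar. C1qc, Cd68, Vsig4 and Adgre1 are at 0 in pup 1, and Tyrobp is the tallest bar, at 344 TPM in pup 3.

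The C1q chains were among the most abundant of these transcripts. C1qb (ENSMUSG00000036905.8) stood at 259 TPM in pup 1, against 225 TPM in pup 3, a mean of 242 ± 24.2 TPM (SD, n = 2), from 10704 and 6374 expected counts. It ranked 455th by TPM among all genes in pup 1 and 603rd in pup 3. Of the 10 genes C1qb alone had a higher level in pup 1, with a log2 ratio of pup 1 over pup 3 of 0.20 on log2(TPM + 1). Scaling by spike-in totals brought that ratio to 0.0013, a scale on which the libraries were level.

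C1qa (ENSMUSG00000036887.5) had 115 TPM in pup 1, against 174 TPM in pup 3, a mean of 145 ± 41.7 TPM (SD, n = 2), from 4532 and 4700 expected counts. The level of C1qb was 2.25 times that of C1qa in pup 1 and 1.29 times in pup 3.

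C1qc (ENSMUSG00000036896.5) had no counts in pup 1 and 6190 expected counts in pup 3, where it stood at 196 TPM, between the other chains. At the ratio of C1qc to C1qa counts in pup 3, the C1qa count of pup 1 would go with 5969 counts of C1qc, and at the ratio to C1qb with 10395. A count of 0 allows up to 3 counts, or 0.0651 TPM, so C1qc was at least 3007-fold lower in pup 1 than in pup 3. Such limits cover counting error alone, since PCR copies without molecular identifiers are not independent molecules. Of the 747 genes at 100 to 300 TPM in pup 3, 5.62% had no counts in pup 1, and of the 704 genes in that range in pup 1, 4.12% had none in pup 3. Of the 4 macrophage genes in that range (C1qb, Clec4f, C1qa and C1qc), C1qc alone had none.

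The 3 C1q genes lie side by side on chromosome 4 (GRCm38), all on the minus strand. C1qb spans 136880129 to 136886187, C1qc 136889804 to 136893065 and C1qa 136895917 to 136898803. Gaps of 3616 nt and 2851 nt separate them within 18.7 kb, and the gene without counts in pup 1 is the middle one. No exon of any of the 10 genes overlaps an exon of another annotated gene. Summed, the C1q transcripts made up 48.6% of the TPM of the 10 genes in pup 1 and 42.5% in pup 3.

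**Figure D2:**
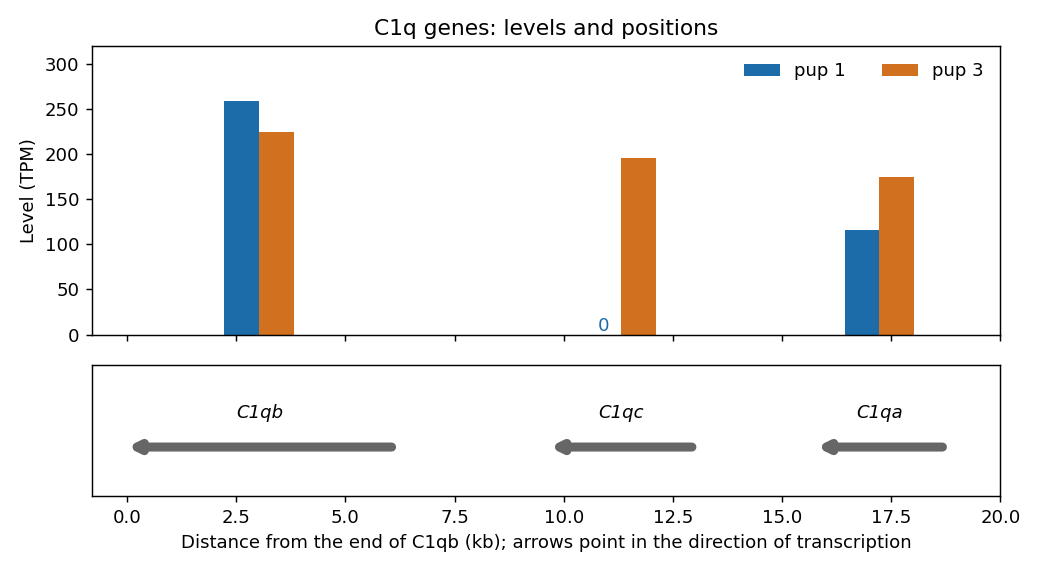
Levels of the 3 C1q genes (upper panel, TPM, pup 1 left and pup 3 right) above their positions (lower panel, kb from the end of C1qb, arrows along transcription). C1qb and C1qa, on either side, have 259 and 115 TPM in pup 1, where C1qc has 0.

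The surface receptors divided between those found in both livers and those found in pup 3 alone. Clec4f (ENSMUSG00000014542.2, chromosome 6, 83644542 to 83656187), the Kupffer cell lectin, had 156 TPM in pup 1, against 195 TPM in pup 3, a mean of 175 ± 27.8 TPM (SD, n = 2). With 15428 and 10246 expected counts it was the most heavily counted of the 10 genes in both libraries, and its longer transcript places it below C1qb and Tyrobp in TPM. Marco (ENSMUSG00000026390.3, chromosome 1, 120474538 to 120505024), a scavenger receptor with a collagen-like stalk, had 32.7 TPM in pup 1, against 42.9 TPM in pup 3, a mean of 37.8 ± 7.25 TPM (SD, n = 2). Clec4f and Marco were thus present at levels that differed little between the pups, by factors of 1.25 and 1.31.

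Vsig4 (ENSMUSG00000044206.3, chromosome X, 96247203 to 96293438), the receptor for C3 fragments on coated particles, had no counts in pup 1 and 1869 expected counts in pup 3, or 49.0 TPM. It was at least 908-fold lower in pup 1 than in pup 3. Adgre1 (ENSMUSG00000004730.10, chromosome 17, 57358691 to 57483527) encodes F4/80, the surface antigen most used to identify mouse macrophages. It was the least abundant of the 10, with no counts in pup 1 and 639 expected counts in pup 3, or 7.36 TPM, and was at least 310-fold lower in pup 1. As for C1qc, the limits for Vsig4 and Adgre1 cover counting error alone. No share of genes without counts was computed near the level of Adgre1. Of all genes detected in either library, 25.2% were found in pup 3 alone.

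Among secreted and intracellular products, Cd5l (ENSMUSG00000015854.7, chromosome 3, 87357881 to 87371073) encodes a macrophage protein that circulates bound to IgM. It had 46.5 TPM in pup 1, against 85.0 TPM in pup 3, a mean of 65.7 ± 27.3 TPM (SD, n = 2), from 3757 and 4716 expected counts. Cd68 (ENSMUSG00000018774.9, chromosome 11, 69664213 to 69666153), a glycoprotein of the lysosomal membrane, had no counts in pup 1 and 2261 expected counts in pup 3, or 81.3 TPM. It was at least 1098-fold lower in pup 1 than in pup 3, by a limit that again covers counting error alone. At 30 to 100 TPM in pup 3 lay Cd5l, Cd68, Marco and Vsig4, of which 2 (Cd68 and Vsig4) had no counts in pup 1. Of all 2086 genes in that range, 24.0% had none, and of the 2055 genes in the same range in pup 1, 27.1% had none in pup 3.

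Tyrobp (ENSMUSG00000030579.9, chromosome 7, 30413760 to 30417585) encodes DAP12, an adaptor that carries signals of activating receptors in myeloid and natural killer cells. It had 161 TPM in pup 1, against 344 TPM in pup 3, a mean of 252 ± 129 TPM (SD, n = 2), from 3128 and 4576 expected counts. Of the 6 genes detected in both libraries it alone was 2-fold or more apart, at 2.13-fold lower in pup 1, whereas 44.6% of the 3555 genes detected in both were that far apart and 24.6% were that much lower in pup 1. Its log2 ratio of -1.09 was -0.83 when scaled by TMM factors, which is under 2-fold.

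Neutrophils also express Tyrobp. The 12 neutrophil genes, led by S100a8, S100a9, Ngp and Camp, summed to 6424 TPM in pup 1, against 9307 TPM in pup 3. Of these genes, 10 were detected in both libraries, or 90.9% of those detected in either, against 46.3% of all genes. These shares are not matched for level. Ctsg had no counts in either. S100a8, a calprotectin subunit gene, had 2061 TPM in pup 1, against 4236 TPM in pup 3, so it was lower in pup 1 as Tyrobp was, while Ngp had 1560 and 996 TPM. The part of neutrophils in the Tyrobp level was not tested. Of the 10 natural killer cell genes, 8 had no counts in either library, among them the defining receptor genes Ncr1 and Klrb1c, and Gzma (42.6 TPM in pup 1, against 86.1 TPM in pup 3) was the gene detected in both. The remaining gene, Nkg7, had 24.5 TPM in pup 1 but was not counted in pup 3. Of the 2 natural killer cell genes detected in either library, 50% were thus detected in both, against 46.3% of all genes. Of all 43346 genes, 7678 were detected in either library.

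Ordered by mean TPM, the genes ran Tyrobp, C1qb, Clec4f, C1qa, C1qc, Cd5l, Cd68, Marco, Vsig4 and Adgre1. Of the 9 neighbouring pairs in that order, 8 had overlapping ranges between the libraries, and C1qb and Clec4f was the pair that did not overlap. Levels were lower in pup 1 for 9 of the 10 genes, against 49.8% of all genes detected in either library. The median log2 ratio of pup 1 over pup 3 was -0.97 with 4 genes at 0 in pup 1. Placing those at their bound left the median at -0.97. It could not move, since it lies between Cd5l and Tyrobp and the 4 stay below both. Over the 6 genes detected in both it was -0.49. The same medians over all genes were 0.01 for those detected in either library and -0.09 for those detected in both. Other scalings shifted every gene by 0.26 (TMM or DESeq2) or -0.20 (spike-in totals) before the pseudocount, and none of them turned the direction of any of the 10 genes.

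Sums over markers of the main liver cell types differed between the pups, for hepatocytes through a few genes. The 8 hepatocyte genes, led by Trf, Ahsg, Apoa1 and Alb, summed to 158537 TPM in pup 1, against 126946 TPM in pup 3, with all 8 detected in both. Trf (64244 TPM in pup 1, against 42243 TPM in pup 3) and Ahsg (32190, against 21893 TPM) had the widest gaps in TPM. By gene, 4 were higher in pup 1 and 4 (Alb, Afp, Ttr and Apob) lower, with a median log2 ratio of -0.06. The 8 erythroid genes, led by Hba-a2, Hbb-bs, Hba-a1 and Hbb-bt, summed to 133241 TPM in pup 1, against 163593 TPM in pup 3, and Epor was found in pup 3 alone. TPM values share a fixed total, and the part of these shifts in the macrophage sum was not tested.

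**Figure D3:**
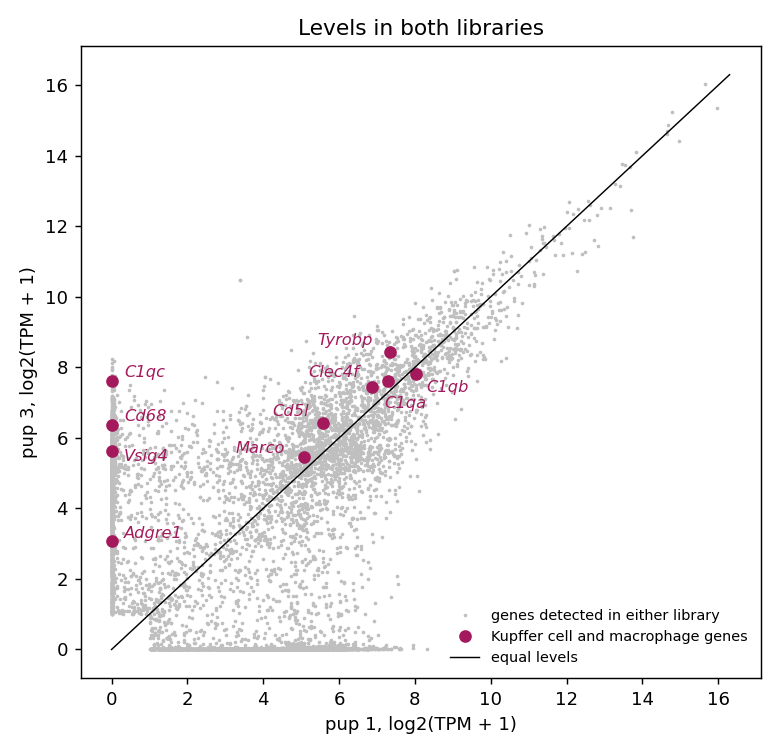
Level in pup 1 (horizontal axis) against pup 3 (vertical axis), both as log2(TPM + 1), for the 7678 genes detected in either library (grey) and the 10 macrophage genes (coloured and named); the line marks equal levels. Tyrobp, Clec4f, C1qa, Cd5l and Marco lie above the line and C1qb below it, while C1qc, Cd68, Vsig4 and Adgre1 lie on the left edge among many other genes with no counts in pup 1.

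Transcript tables listed 17 transcripts for the 10 genes, of which 12 reached 1 TPM in either library. C1qa, C1qb, Cd5l and Tyrobp have a single annotated transcript. Clec4f was read entirely as its protein-coding transcript Clec4f-201 in pup 1, at 156 TPM, and in pup 3 this transcript had 139 TPM. The rest of Clec4f in pup 3 went to Clec4f-202, a processed transcript without an annotated protein, with 56.4 TPM there and nothing in pup 1. Clec4f-202 held 28.9% of the gene's TPM in pup 3 but 7.99% of its counts, because it is 606 nt long against 2471 nt for Clec4f-201. For the protein-coding transcript alone, the log2 ratio of pup 1 over pup 3 was 0.17, against -0.32 for the gene as a whole, and with spike-in totals it turned to -0.04.

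Cd68 showed a like division in pup 3. The coding transcript Cd68-201 held 73.9% of its TPM and the processed transcript Cd68-203 held 25.9%, or 86.1% and 13.7% of counts. Adgre1 was read as Adgre1-201, of 23 exons, at 7.24 TPM in pup 3, and the alternative Adgre1-202 had 0.138 TPM. C1qc, Vsig4 and Marco were assigned wholly to their main coding transcripts wherever they were counted. The short transcripts C1qc-202, Vsig4-202 and Marco-202 had no counts in either library.

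Other genes of Kupffer cell identity were found in part. Of 16 such genes, 7 were detected in both libraries, 1 in pup 1 alone, 3 in pup 3 alone and 5 in neither, so that 63.6% of those detected in either were detected in both, against 46.3% of all genes. The 2 shares are not matched for level, since each of the 11 detected genes reached 29.4 TPM or more in at least 1 library. Slc40a1, the iron exporter ferroportin, had 77.0 TPM in pup 1, against 272 TPM in pup 3, and Nr1h3, the nuclear receptor LXR-alpha that Kupffer cells depend on, had 44.7 and 142.8 TPM. In the other direction, Pltp, a phospholipid transfer protein gene, had 144 TPM in pup 1, against 45.3 TPM in pup 3, and Cfp, which encodes the complement stabiliser properdin, had 134 and 50.0 TPM. Hepatocytes and other cells also express Slc40a1, Nr1h3 and Pltp.

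Timd4, the receptor for phosphatidylserine on dying cells, had 38.7 TPM in pup 3 but was not counted in pup 1. Folr2 (52.4 TPM) and Il18bp (29.4 TPM) were likewise counted in pup 3 alone, and Clec1b (38.2 TPM) in pup 1 alone. Spic, Cd163 and Cd207 had no counts in either library, Slco2b1 had 1 expected count in pup 1, and Slc11a1 had 31 in pup 3. Within this list, 5 of the 11 detected genes were higher in pup 1 and 6 lower, with a median log2 ratio of -1.22 (-1.42 with spike-in totals and -0.96 with TMM factors). The sign of that median rests on the genes found in 1 library alone. Of those detected in both, Pltp, Cfp, Id3 and Hmox1 were higher in pup 1 (log2 ratios 1.65, 1.41, 1.02 and 2.59). Slc40a1, Nr1h3 and Hpgd were lower (-1.81, -1.65 and -1.22).

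General macrophage genes were found in part too. Of 27 such genes, 11 were detected in both libraries, 8 in pup 1 alone, 4 in pup 3 alone and 4 in neither. Of those detected in either, 47.8% were detected in both, which is close to the 46.3% of all genes. Of the 23 detected genes 14 were higher in pup 1 (13 with spike-in totals and 15 with TMM factors), against 50.2% of all genes detected in either library. Their median log2 ratio was 0.69, while that of the Kupffer cell identity list and that of the 10 genes above were negative. Each of these medians includes genes found in 1 library alone, and the sign for the identity list rests on them. Csf1r, the receptor for the growth factor that macrophages need to survive, was nearly level between the pups, with 89.8 TPM in pup 1, against 82.7 TPM in pup 3. Fcer1g, which encodes the signalling chain of Fc receptors and an adaptor akin to DAP12, had 291 TPM in pup 1, against 116 TPM in pup 3, the reverse of Tyrobp. Lgals3 (galectin-3) had 158 TPM in pup 1, against 34.8 TPM in pup 3. Lyz2 (lysozyme) had 112 and 265 TPM, and Ctss, a lysosomal protease, 53.0 and 136 TPM.

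Transcription factor genes of macrophages were split between the livers. Spi1, which encodes PU.1, had 31.6 TPM in pup 3 but was not counted in pup 1. Maf had 7.79 TPM in pup 1, against 0.117 TPM in pup 3. Among the other genes at 1 TPM or more in pup 1 alone were Cx3cr1, Axl, Fcgr1, Fcgr4, Mrc1 and Mertk, and the other genes of pup 3 alone were Ctsc, Ms4a7 and Ms4a6c. Cd14, Mpeg1, Trem2 and Zeb2 had no counts in either. Over both lists, 34 genes reached 1 TPM in at least 1 library and 18 of these (52.9%) did so in both, against 46.3% of all genes, again not matched for level.

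**Figure D4:**
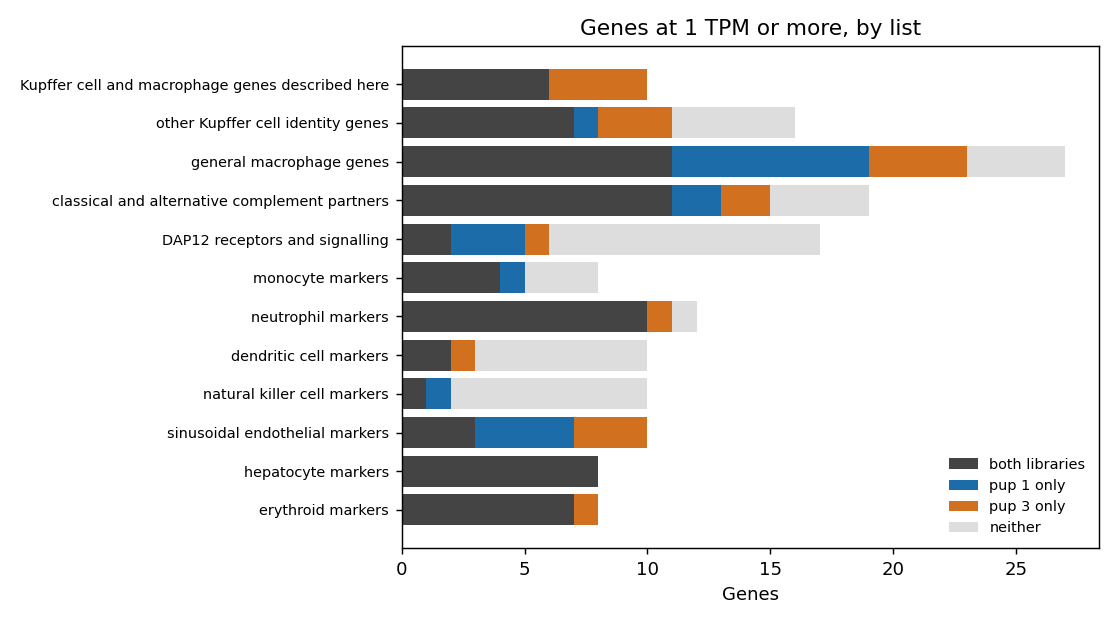
Number of genes (horizontal axis) at 1 TPM or more in both libraries, in pup 1 alone, in pup 3 alone or in neither, for the 10 macrophage genes and 11 other lists. The top bar has 6 genes in both and 4 in pup 3 alone, and the general macrophage list has 8 in pup 1 alone and 4 in pup 3 alone.

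The partners of C1q and of DAP12 were read next. C1q activates the proteases C1r and C1s, which cleave C4 and C2. C1s1 had 83.4 TPM in pup 1, against 83.5 TPM in pup 3, while C1ra had 22.1 and 76.6 TPM. C4b had 120 TPM in pup 1, against 47.7 TPM in pup 3, and C2 was counted in pup 3 alone, at 40.5 TPM. Of the liver-made components, Cfb, C3 and Serping1 exceeded each C1q chain in both libraries. Cfi did so in pup 3 alone, and C4b and C2 in neither. Cfb had 1698 TPM in pup 1, against 714 TPM in pup 3, C3 had 1015 and 850 TPM, Serping1, the inhibitor of C1r and C1s, had 361 and 326 TPM, and Cfi had 82.2 and 486 TPM. In that list of 19 complement genes, 11 were detected in both libraries, or 73.3% of the 15 detected in either, against 46.3% of all genes. These shares too are not matched for level.

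Of 17 genes for receptors and enzymes around DAP12, 2 were detected in both libraries (Fcer1g and Ptpn6) and 11 in neither. Of the 6 detected in either, 33.3% were thus detected in both, against 46.3% of all genes. Ptpn6, a phosphatase that restrains such signals, had 1.04 TPM in pup 1, against 123 TPM in pup 3. Vav1 (55.9 TPM), Hcst (38.6 TPM) and Inpp5d (9.69 TPM) were counted in pup 1 alone and Plcg2 (16.0 TPM) in pup 3 alone. Syk, the kinase that DAP12 recruits, and the partner receptor genes Trem2, Trem1 and Clec5a had no counts in either library.

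Markers of related cell types were found as well. Of 8 monocyte genes, 4 were detected in both libraries, or 80.0% of the 5 detected in either, against 46.3% of all genes, again not matched for level. The list summed to 796 TPM in pup 1, against 748 TPM in pup 3. Fn1, which hepatocytes also express, had 446 TPM in pup 1, against 521 TPM in pup 3, Plac8 had 166 and 105 TPM, Ly6c2 had 96.7 and 64.8 TPM and Chil3 had 57.4 and 56.2 TPM. F13a1 (29.5 TPM) was found in pup 1 alone, and Ccr2, the receptor that defines inflammatory monocytes, had no counts. Of 10 dendritic cell genes, 7 were detected in neither library, among them Xcr1 and Clec9a. The antigen presentation genes H2-Ab1 (141 TPM in pup 1, against 36.2 TPM in pup 3) and Cd74 (26.5 and 49.6 TPM) were found in both, and H2-Aa (161 TPM) in pup 3 alone. Of the 3 dendritic cell genes detected in either library, 66.7% were thus detected in both, against 46.3% of all genes. Of all 43346 genes, 7678 were detected in either library. Of 10 sinusoidal endothelial genes, 3 were found in both (Egfl7, Stab2 and Pecam1), 4 in pup 1 alone (Lyve1, Stab1, Clec4g and Mrc1) and 3 in pup 3 alone (Fcgr2b, Oit3 and Kdr). Over all genes detected in either library, the shares were 46.3% in both, 28.5% in pup 1 alone and 25.2% in pup 3 alone. The endothelial genes summed to 393 TPM in pup 1, against 209.5 TPM in pup 3.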

How the data were processed

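RNA-seq tables of genes and transcripts from 2 libraries of 1 group were used. Per the labels' protocols, libraries followed a SmartSeq method, which amplifies cDNA. Per the notes deposited with the files, values refer to mm10 with GENCODE M4 and derive from a transcriptome alignment. For the aligner, the quantifier and the use of strand, details were not given in the sources used here. The authors deposited expected counts, which divide reads of several origins among features, and TPM, corrected for effective length over all features including spike-ins. The deposited FPKM and posterior mean TPM served as alternatives, and a transcript's part of its gene's TPM was taken from the isoform percent the authors deposited. The deposited credibility bounds, a score, were not used.

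Spike-ins (3.76% of expected counts in pup 1 and 3.28% in pup 3) were removed and TPM was rescaled to 1000000. For 42462 of 43346 genes, GENCODE M21 (GRCm38, the same assembly as mm10) gave names and positions. No test was made, since both libraries form 1 group. Ratios are pup 1 over pup 3 on log2(TPM + 1), which understates those of low genes. A count of 0 allows 3 counts, or 0.0547 CPM in pup 1 and 0.0862 CPM in pup 3. The ratio procedure was tested on simulated data with counting error alone, a setting that leaves out amplification and the loss of genes from a library. The genes and 11 lists (138 symbols) were chosen with earlier results of these data known. Named genes were all 10, up to 4 leading genes per list detected in both libraries, and genes behind counts of 5 or fewer. Csf1r, Hpgd, C4b, C1ra, C1s1, C2, Ccr2, F13a1, Syk, Trem1, Clec5a, Ncr1, Klrb1c, Xcr1, Clec9a and the macrophage genes of pup 1 alone lie outside that rule and were named after their values were seen. Some list genes are counted in their list but not reported here by name. With 2 libraries, no likeness of pattern to other genes was computed. Scaling factors on rounded expected counts came from DESeq2 1.42.0 and edgeR 4.0.16 in R 4.3.3, and all else was computed in Python 3.11.15 with pandas 2.3.3, numpy 2.4.6 and matplotlib 3.10.9.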

Additional observations from a re-analysis of the deposited data

How the results depend on the processing

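The share of TPM held by the 10 genes (0.109%) lay between 0.0833% (without Tyrobp) and 0.116% (protein-coding genes alone in the total) under the other units, totals and depth tried, shifts smaller than the SD between the libraries of 0.0445. With a replicate left out it ranged from 0.0771% to 0.140%, which are the values of the single libraries and no sign of stability. The count of 6 genes detected in both was 6 at 0.1 TPM, at 5 TPM, at 10 expected counts and with pup 1 thinned to the depth of pup 3. These settings could not change it and are no sign of stability. C1qc, Cd68, Vsig4 and Adgre1 have no counts in pup 1, and the 6 had at least 32.7 TPM and 2245 expected counts in both. The count was 10 without replicate 1 and 6 without replicate 2, since it then covers genes detected in the library that remains. For the 43 other Kupffer cell and macrophage genes the count ran from 18 to 20 at those settings, and from 25 to 27 with a replicate left out. The median log2 ratio stayed negative, from -1.17 with spike-in totals to -0.49 over genes with 100 expected counts or more in both libraries, and a shift under 0.5, a limit set after the data were seen, was taken as no move. Ratios of C1qc, Cd68, Vsig4 and Adgre1 depended on the pseudocount (C1qc -10.9 with 0.1 and -4.36 with 10), because they are at 0 in pup 1. No paired analysis was possible because there is 1 group. The zeros lie in the deeper library, of 54817565 endogenous expected counts, and 2 libraries of 1 group allow no test of a difference between livers.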
